A study of Homo sapiens with 4 samples.

Results

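The 10 genes described here make, reduce, carry, sense or inactivate prostaglandins: HPGD, PTGS1, PTGS2, PTGES, PTGES2, PTGES3, PTGR1, PTGR2, SLCO2A1 and PTGER4. They were taken by symbol from the 60880 genes of the count table, and all 10 were found. The group was selected on measured values of the comparison reported below, because HPGD went from no reads to more than 1000, and the other 9 genes were added as its pathway partners. The levels of these 10 genes in this comparison are therefore given as a description, with no p-values. How many of them met the call rule used for all genes is stated once, beside the share over all tested genes, and nothing is read from it.

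RNA-Seq was performed on 4 libraries of human prostate cancer cells, with 2 of LNCaP95 (replicates 1 and 2) and 2 of LN95(KO) (replicates 3 and 4). LNCaP95 is a castration-resistant cell model obtained from the LNCaP line by long androgen depletion, labelled as wild type, and LN95(KO) was derived from it by CRISPR knockout of UGT2B17, the enzyme that glucuronidates androgens. Both were grown in RPMI1640 with charcoal-stripped serum, which is poor in steroids, and were not treated. How many knockout clones were used is not stated. The labels give LN95 as the line of all 4 libraries, whereas the series description gives LNCaP for the knockout. The comparison asks how the transcripts of the knockout line differ from those of its parent.

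Prostaglandins are made from arachidonic acid, which phospholipases free from membranes. The cyclooxygenases PTGS1 and PTGS2 convert it to prostaglandin H2, and terminal synthases such as PTGES turn that into single prostaglandins, among them prostaglandin E2, which acts through receptors of the PTGER family. The signal is ended when SLCO2A1 brings prostaglandin into the cell and HPGD (15-hydroxyprostaglandin dehydrogenase) oxidizes it, after which PTGR1 and PTGR2 reduce the product further. In the prostate, prostaglandin E2 has been studied as a growth and inflammatory signal, and HPGD is best known as the enzyme that removes it.

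Gene reads numbered 17330338 to 18813193 per library, and the share of entries not aligned was 3.85% and 3.96% for LNCaP95 but 8.05% and 7.71% for LN95(KO). UGT2B17 was read 2788 and 2748 times in LNCaP95 and 21 and 20 times in LN95(KO), and fell by 7.04 on the log2 scale (SE 0.10, edgeR adjusted p = 1.18e-18, n = 2 in each group). Genes were called where edgeR's quasi-likelihood test gave a Benjamini-Hochberg adjusted p below 0.05 and the groups differed by more than 2-fold. Of 15626 genes tested, 2811 (18.0%) were called, 1384 of them higher (8.86%) and 1427 lower (9.13%). The luminal prostate markers HOXB13, FOLH1, KRT8, KRT18, KLK3 and TMPRSS2 were present in every library, and KLK3 and TMPRSS2 rose while FOLH1 fell. Of 8 markers of other cell types, 7 were matched. COL1A1 had 520 to 606 reads in each library, and the others had at most 3 reads in any library, with DCN, CD3E and CD68 at 0 in all. Since the labels do not say that the libraries of a group came from separate cultures, p-values measure the spread between these libraries, which may be technical.

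HPGD (ENSG00000164120.13_2) codes for a protein in 8 exon blocks and spans positions 175411326 to 175444305 of chromosome 4 in GRCh37, on the minus strand. No read was assigned to HPGD in either LNCaP95 library. The LN95(KO) libraries held 1326 and 1596 HPGD reads, or 74.9 and 87.5 CPM (CPM being counts scaled to a common library size with TMM factors). Both knockout libraries thus stood far above both parent libraries, and the mean level in LN95(KO) was 81.2 ± 8.87 CPM (SD, n = 2). A count of 0 was taken to allow up to 3 counts over the pooled LNCaP95 libraries, or 0.0816 CPM. On this limit HPGD was at least 996-fold higher in LN95(KO). The 95% Poisson interval used for PTGS2 below reaches 0.100 CPM for HPGD in LNCaP95, and would give a lower bound on the fold. The bound depends on how many libraries are pooled, and was 496 without LNCaP95 replicate 1 and 500 without LNCaP95 replicate 2. More cells that express HPGD and more HPGD RNA per cell cannot be told apart in these bulk libraries.

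The values that chose HPGD, 0 reads in both LNCaP95 libraries and more than 1000 in each LN95(KO) library, are not a finding. ST6GALNAC1 lay just outside them, with 1 and 1 reads in LNCaP95 but 1639 and 1694 in LN95(KO). In all, 790 genes with a symbol had 0 reads in both LNCaP95 libraries and at least 1 read in both LN95(KO) libraries. Counting did not use strand, and 5.68% of HPGD exon bases overlap ENSG00000251584, a noncoding gene on the opposite strand to which 0 reads were assigned in all 4 libraries.

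**Figure D1:**
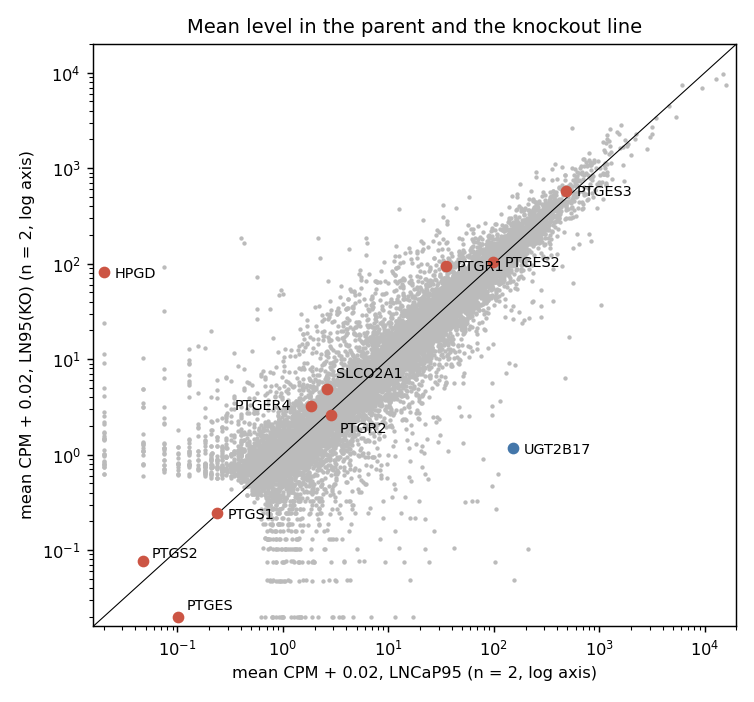
Mean level of each tested gene in LNCaP95 (horizontal axis) and LN95(KO) (vertical axis), in CPM with 0.02 added, both on log axes, with the line of equal levels. Red points are the 10 prostaglandin genes and the blue point is UGT2B17: HPGD lies at 0 on the LNCaP95 axis and at 81.2 CPM on the LN95(KO) axis, while PTGES2 and PTGES3 lie close to the line.

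The sequence before the start of HPGD was examined because HPGD had no reads in 1 line and many in the other. In the 250 bases before the start of its representative GENCODE transcript, HPGD had 29 CpG dinucleotides and a GC content of 70.8%. The median over 19890 protein-coding windows of this length was 18 CpG, and the 10th and 90th percentiles were 2 and 33. The PTGR1 window, shown because PTGR1 was also higher in LN95(KO), had 23 CpG, and that of PTGS2, shown as a gene with almost no reads in either line, had 9. Windows of 30 bases around a motif are given below in the direction of transcription, with the motif in capitals. All 3 genes lie on the minus strand of GRCh37, and the sequence is from the reference genome with starts of representative GENCODE transcripts.
HPGD, chr4:175443707-175443736, a GC box 85 bases before the start: acagtttcctccCCGCCCactggcagggga
PTGR1, chr9:114361976-114362005, a GC box 66 bases before the start: aaagaagcagccCCGCCCtggggtggcccc
PTGS2, chr1:186649570-186649599, a TATA box 32 bases before the start: ggttttcagtctTATAAAaaggaaggttct

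For these 3 genes GENCODE also annotates other starts further upstream, so that each of these windows lies within the annotated span of its gene. In HPGD and PTGR1 the capitals are the reverse complement of GGGCGG, the letters searched for a GC box. On either strand, GGGCGG occurred in 58.8% of all windows and TATAAA in 9.37%. Among the members, GGGCGG was found in every window except those of PTGS1 and PTGS2, and so also in that of PTGES, which was almost unread. TATAAA was found in PTGS2 and also in SLCO2A1, which was higher in LN95(KO). TGACNNNGC, the core of the antioxidant response element, occurred in 11.3% of all windows, and among the members in PTGES2, PTGES3 and SLCO2A1. These matches describe letters in short windows only. No binding or methylation was measured.

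The genes around HPGD were examined in the same way. Within 1 Mb of HPGD the annotation holds 5 other protein-coding genes, of which HAND2 and ADAM29 had 0 reads in all libraries and GLRA3 had 5 and 3 reads in LNCaP95 and 2 and 2 in LN95(KO). FBXO8, a ubiquitin ligase adaptor 206.5 kb away, had 361 and 368 reads in LNCaP95 and 239 and 225 in LN95(KO) (log2 fold change -0.62, SE 0.10, edgeR adjusted p = 3.92e-05). CEP44, a centrosomal protein gene 156.8 kb away, had 194 and 192 reads against 245 and 242 (log2 fold change 0.37, SE 0.11, edgeR adjusted p = 0.00837). By edgeR, both therefore differed by more than the spread between replicates, in opposite directions, but by less than 2-fold. Of the 2 neighbours tested with edgeR 0 were called, beside 18.0% of all tested genes. Both had an unadjusted p under 0.05, as did 63.4% of all tested genes. DESeq2 called 0, and without the fold criterion gave only 1 of the 2 an adjusted p under 0.05, beside 7006 of 15626 genes. Of 22 other annotated genes in the span, 19 had 0 reads in every library, and the rest had at most 5 reads in any library. UGT2B17 lies on the same chromosome, 106 Mb from HPGD.

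**Figure D2:**
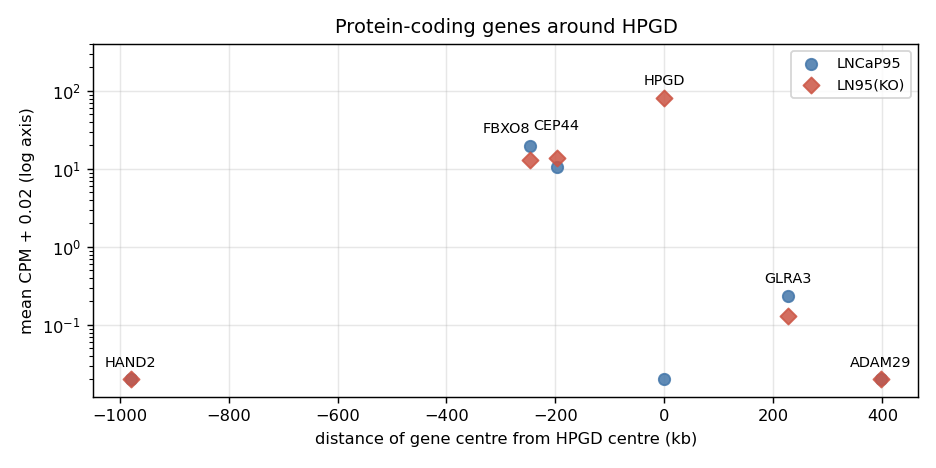
Mean CPM with 0.02 added (vertical log axis) of the protein-coding genes within 1 Mb of HPGD, by the distance of the gene centre from the centre of HPGD in kb. Circles are LNCaP95 and diamonds LN95(KO) (n = 2 each): HPGD is at 0 in LNCaP95 and at 81.2 CPM in LN95(KO), whereas FBXO8 goes from 19.8 to 12.9 CPM and CEP44 from 10.5 to 13.6 CPM.

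The cyclooxygenases, which open the pathway, were almost unread. PTGS1 (chromosome 9, 125132809 to 125157982 of GRCh37), the constitutive enzyme, had 1 and 7 reads in LNCaP95 and 5 and 3 in LN95(KO), and the groups overlapped. The ratio of pooled PTGS1 counts was 1.02, with an exact interval for counting error of 0.335 to 3.13. PTGS2 (chromosome 1, 186640923 to 186650054 of GRCh37), the inducible enzyme, had 0 and 1 reads in LNCaP95 and 2 and 0 in LN95(KO), counts that allow at most 0.152 CPM and 0.201 CPM (upper limits of 95% Poisson intervals on pooled counts). A difference in PTGS2 was not detectable at this depth.

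The 3 genes named as prostaglandin E synthases differed widely in level. PTGES (chromosome 9, 132500610 to 132515321 of GRCh37), the microsomal synthase coupled to PTGS2, had 2 and 1 reads in LNCaP95 and 0 and 0 in LN95(KO), too few for a fold. PTGES2 (chromosome 9, 130882972 to 130890741 of GRCh37) had 1826 and 1827 reads in LNCaP95 and 1740 and 1998 in LN95(KO), or 99.3 ± 0.578 and 104 ± 7.90 CPM. Its groups overlapped, and the log2 fold change of 0.06 (SE 0.06) became -0.01 without LN95(KO) replicate 4.

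PTGES3 (chromosome 12, 57057125 to 57082192 of GRCh37), also known as p23, is both a cytosolic prostaglandin E synthase and a co-chaperone of HSP90. It had 8999 and 8690 reads in LNCaP95 and 9849 and 10865 in LN95(KO), or 481 ± 9.27 and 576 ± 27.5 CPM. The groups did not overlap, and the log2 fold change was 0.26 (SE 0.05). Processed copies of PTGES3 can share reads with it, and 5 of them in the table held 179 to 227 reads per library, or 1.99% to 2.26% of PTGES3 reads.

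PTGR1 (ENSG00000106853.19_4, chromosome 9, positions 114312002 to 114362173 of GRCh37) reduces 15-oxo-prostaglandins and also oxidizes leukotriene B4. PTGR1 had 666 and 623 reads in LNCaP95 and 1684 and 1733 in LN95(KO), or 35.0 ± 1.46 and 95.1 ± 0.128 CPM. Both LN95(KO) libraries were above both LNCaP95 libraries, and PTGR1 was 2.71-fold higher, a log2 fold change of 1.44 (SE 0.06). PTGR2 (chromosome 14, 74318534 to 74352429 of GRCh37), another reductase of the same products, had 53 and 51 reads in LNCaP95 and 53 and 39 in LN95(KO). The PTGR2 groups overlapped, and its log2 fold change of -0.14 (SE 0.23) became 0.09 without LN95(KO) replicate 4. Other annotated genes overlap 35% of PTGR2 exon bases, so part of its reads could not be assigned with certainty.

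SLCO2A1 (chromosome 3, 133651545 to 133771028 of GRCh37), the transporter that takes up prostaglandins before HPGD acts on them, had 45 and 51 reads in LNCaP95 and 92 and 81 in LN95(KO). The groups did not overlap, at 2.61 ± 0.245 and 4.82 ± 0.537 CPM, a log2 fold change of 0.88 (SE 0.19). PTGER4 (chromosome 5, 40680017 to 40693837 of GRCh37), the EP4 receptor that raises cyclic AMP on binding prostaglandin E2, had 31 and 36 reads in LNCaP95 and 54 and 62 in LN95(KO). Its groups did not overlap either, at 1.82 ± 0.202 and 3.22 ± 0.245 CPM, a log2 fold change of 0.82 (SE 0.23). Both genes were thus higher in LN95(KO) by somewhat less than 2-fold, from a low level.

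**Figure D3:**
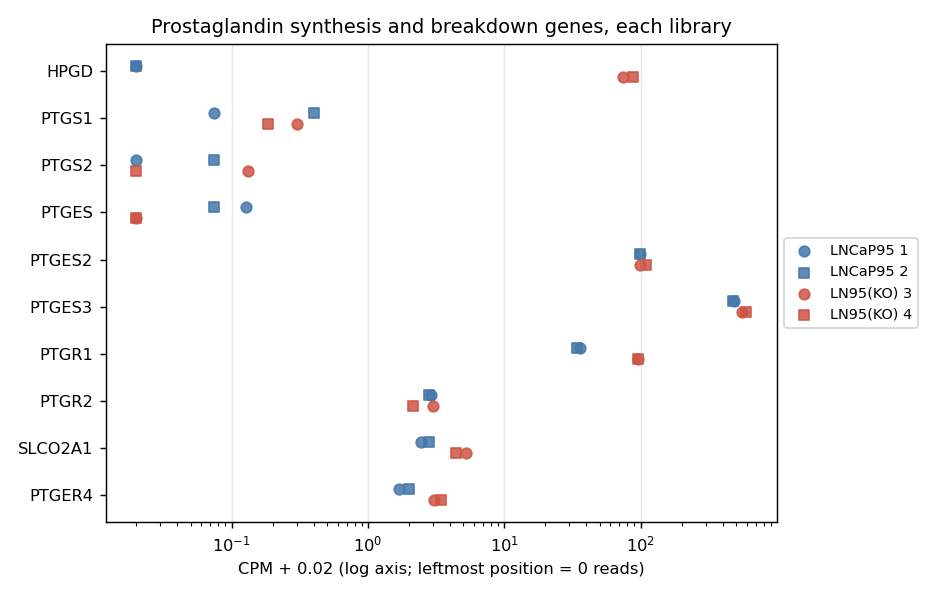
CPM with 0.02 added (horizontal log axis) of the 10 prostaglandin genes in each library, blue for LNCaP95 and red for LN95(KO), with circles and squares for the 2 replicates of a group. The LN95(KO) points of HPGD, PTGR1, SLCO2A1, PTGER4 and PTGES3 lie above both LNCaP95 points, those of PTGES2 and PTGR2 overlap, and PTGS1, PTGS2 and PTGES stay below 0.5 CPM in every library.

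Of the 10 genes, 7 passed the filter on low counts, HPGD only through its LN95(KO) libraries, and PTGS1, PTGS2 and PTGES did not pass. Of the 6 others that passed, PTGR1 alone met the call rule (16.7%, beside 18.0% of all tested genes). With no fold criterion, 4 met an adjusted p under 0.05 with edgeR (59.8% of all tested genes), and 3 did with DESeq2 (7006 of 15626 genes). CPM values did not overlap between the groups for 4 of the 6, as for 79.8% of all tested genes. These counts are no evidence about the group, because the genes were chosen with the comparison known.

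Levels of different genes were compared as CPM per kb of exon. In LNCaP95 the order was PTGES3 (142 ± 2.73), PTGES2 (16.3 ± 0.0950) and PTGR1 (9.30 ± 0.388), followed at a distance by PTGER4 (0.514 ± 0.0571), SLCO2A1 (0.509 ± 0.0478) and PTGR2 (0.405 ± 0.00881). In LN95(KO) PTGES3 was again first (169 ± 8.10), PTGR1 stood above PTGES2 (25.2 ± 0.0339 against 17.1 ± 1.30), and HPGD came next at 14.7 ± 1.60 CPM per kb. PTGER4 and SLCO2A1 lay within their spread of each other in both lines, and PTGES2 and HPGD in LN95(KO) differed by less than the sum of their SDs. PTGS1, PTGS2 and PTGES were below 0.05 CPM per kb in both lines.

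The patterns most like that of HPGD were sought over the 4 libraries by Euclidean distance of log2(CPM + 0.5). The nearest was ST6GALNAC1, a sialyltransferase, at a distance of 0.380. It was followed by COLCA1 at 1.56, EPHA3 at 1.89, FAM110B at 1.93 and PLA1A at 2.06. PLA1A, a phospholipase that acts on phosphatidylserine, had 8 and 6 reads in LNCaP95 and 3406 and 3269 in LN95(KO). Over 2 groups of 2 libraries, the distance mainly reflects a low level in LNCaP95 and a similar high level in LN95(KO).

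The rest of the prostanoid pathway was described from a list of 36 further genes, of which 29 had reads, 7 had none and 18 were tested. Of the 18, 8 (44.4%) were called, beside 18.0% of all tested genes: 5 rose, beside 8.86%, and 3 fell, beside 9.13%. Without the fold criterion 12 of the 18 passed with edgeR, beside 59.8%, and 8 passed with DESeq2, beside 7006 of 15626 genes. The median log2 fold change of the 18 was 0.05, against -0.01 over all tested genes. The count fell to 5 without LNCaP95 replicate 2 and to 5 without LN95(KO) replicate 4, in each case through MGLL, AKR1B1 and TBXA2R. AKR1B1, TBXA2R, PTGER3 and SLCO3A1 passed the filter on low counts only through the group where they were higher. Their being tested was therefore tied to the difference itself. The list was also chosen with earlier results of these data known, and nothing is read from the share called.

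Among the genes that release arachidonic acid, PLA2G2A fell and MGLL rose, out of 5 tested and 10 listed, beside 9.13% and 8.86% of all tested genes. PLA2G2A, a secreted phospholipase A2, had 8836 and 8554 reads in LNCaP95 and 115 and 112 in LN95(KO). It went from 473 ± 8.28 to 6.32 ± 0.255 CPM and fell by 6.23 on the log2 scale (SE 0.07, edgeR adjusted p = 1.75e-19). Both LN95(KO) libraries were far below both LNCaP95 libraries. MGLL, the lipase that frees arachidonic acid from an endocannabinoid, had 84 and 73 reads against 149 and 177, a log2 fold change of 1.08 (SE 0.15, edgeR adjusted p = 1.14e-05), which was 0.99 without LNCaP95 replicate 2. PLA2G4A, the cytosolic phospholipase A2 most often tied to prostaglandin synthesis, had only 2 and 3 reads against 4 and 5 and was not tested.

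Of the terminal synthases, 2 of 5 tested rose, beside 8.86% of all tested genes, and PTGDS, HPGDS and PTGIS, which make prostaglandin D2 and prostacyclin, had 0 reads in all libraries. TBXAS1, the thromboxane synthase, had 89 and 102 reads in LNCaP95 and 222 and 259 in LN95(KO) (log2 fold change 1.36, SE 0.14, edgeR adjusted p = 1.71e-07). AKR1B1, an aldose reductase with prostaglandin F synthase activity, had 5 and 4 reads against 11 and 12 (log2 fold change 1.36, SE 0.52). It passed the filter on low counts only through LN95(KO), so no p-value is given. AKR1B1 was not called by DESeq2, without that filter or when any 1 library was left out. PRXL2B, another prostaglandin F synthase, had 1674 and 1670 reads against 1055 and 1039, a log2 fold change of -0.64 (SE 0.06, edgeR adjusted p = 3.97e-08), below the fold criterion. AKR1C3, which also acts on steroids and has close paralogs, had 27 and 21 reads against 44 and 45, a log2 fold change of 0.92 (SE 0.26).

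Among transporters and enzymes of further breakdown, 4 were tested, of which ABCC4 rose and SLCO3A1 fell, beside 8.86% and 9.13% of all tested genes. ABCC4, which exports prostaglandins from cells, had 387 and 360 reads in LNCaP95 and 1825 and 1698 in LN95(KO). It went from 20.3 ± 0.928 to 98.1 ± 7.12 CPM and rose by 2.27 on the log2 scale (SE 0.07, edgeR adjusted p = 5.08e-14). SLCO3A1, an organic anion transporter that accepts prostaglandins, had 105 and 87 reads in LNCaP95 but 2 and 0 in LN95(KO). It passed the filter on low counts only through LNCaP95, so no p-value is given. The ratio of pooled SLCO3A1 counts, LNCaP95 over LN95(KO), was 93.9, with a counting interval of 25.6 to 781. The edgeR estimate of -6.39 (log2) for SLCO3A1 rests on those 2 reads. It moved to -9.58 when LN95(KO) replicate 3 was left out and to -5.44 when replicate 4 was. CYP4F8, a prostaglandin hydroxylase, had 0 and 0 reads against 8 and 7 and was too low to be tested. Its 95% Poisson interval in LN95(KO) was 0.234 to 0.688 CPM, against an upper limit of 0.100 CPM in LNCaP95.

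Of the other prostanoid receptors, PTGER2, PTGDR and PTGIR had 0 reads in all libraries. Of 4 genes tested on this list, TBXA2R rose and PTGER3 fell, beside 8.86% and 9.13% of all tested genes. The others were PPARG and PTGFRN, which is named as a regulator of the prostaglandin F receptor and is not itself a prostanoid receptor. PTGFRN had a log2 fold change of 0.10 (SE 0.05). PTGER3, the EP3 receptor, which lowers cyclic AMP, had 22 and 20 reads in LNCaP95 and 3 and 3 in LN95(KO). Its log2 fold change was -2.73 (SE 0.49). TBXA2R, the thromboxane receptor, had 3 and 3 reads against 10 and 11 (log2 fold change 1.80, SE 0.58). TBXA2R was not called by DESeq2 or when any 1 library was left out. PTGER3 and TBXA2R passed the filter on low counts only through the group where they were higher, so no p-values are given for them. PTGER1 had 1 and 4 reads against 3 and 0. PPARG, a nuclear receptor for oxidized prostaglandins, had 104 and 101 reads against 114 and 87, a log2 fold change of 0.01 (SE 0.17).

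The lipoxygenase and leukotriene branch uses the same arachidonic acid, and some of its products are substrates of HPGD and PTGR1. Of 16 genes listed, 10 were tested and 2 (20.0%) were called, beside 18.0% of all tested genes, with a median log2 fold change of 0.05. ALOX15, the 15-lipoxygenase whose products HPGD can oxidize, had 442 and 469 reads in LNCaP95 and 1216 and 1181 in LN95(KO), and rose by 1.43 on the log2 scale (SE 0.07, edgeR adjusted p = 1.5e-11). LTC4S, leukotriene C4 synthase, had 34 and 30 reads against 12 and 14 and fell by 1.26 on the log2 scale (SE 0.32, edgeR adjusted p = 0.00251), a call not made by DESeq2. ALOX5, which starts leukotriene synthesis, had 3 to 6 reads in each library, and its partner ALOX5AP had 0 in all.

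**Figure D4:**
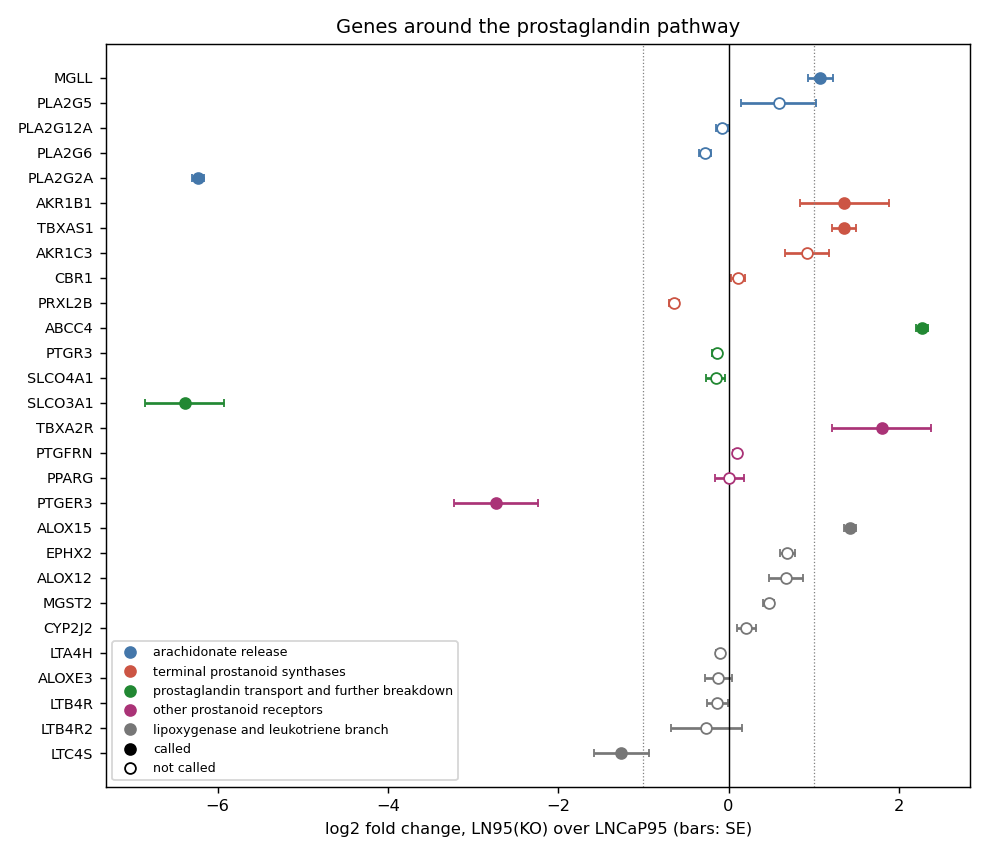
Log2 fold change of LN95(KO) over LNCaP95 (horizontal axis, bars are SE) for the tested genes of the wider prostanoid and lipoxygenase lists, coloured by list, with filled points for called genes and dotted lines at 2-fold. PLA2G2A lies at -6.23, SLCO3A1 at -6.39 (a value that moves with either LN95(KO) library), PTGER3 at -2.73 and ABCC4 at 2.27, while all open points lie between the dotted lines.

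Because PTGES3 is also an HSP90 co-chaperone, HSP90 and other co-chaperones were described beside it. Of 9 genes, all tested, 0 were called with edgeR, beside 18.0% of all tested genes, and 4 had an unadjusted p under 0.05, beside 63.4%. DESeq2 called 0 as well, and without the fold criterion gave 2 of the 9 an adjusted p under 0.05, beside 7006 of 15626 genes. HSP90AA1 went from 659 ± 20.3 to 727 ± 85.6 CPM and HSP90AB1 from 1585 ± 36.7 to 1646 ± 74.5 CPM, and the groups overlapped for both. Of the 4, CDC37, which loads kinases onto HSP90, went from 123 ± 7.33 to 178 ± 11.3 CPM (log2 fold change 0.53, SE 0.06, edgeR adjusted p = 4.76e-07). The others fell. The log2 fold changes were -0.25 for UNC45A (SE 0.05), -0.14 for STIP1 (SE 0.05) and -0.14 for PPID (SE 0.06), with edgeR adjusted p of 0.000689, 0.0319 and 0.0435. ETFDH overlaps 56.7% of PPID exon bases, so part of the PPID reads could not be assigned with certainty. The median of the 9 log2 fold changes was 0.00.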

How the data were processed

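Raw read counts per gene were deposited for 4 libraries of poly(A)-selected RNA. Per the submitters' processing notes, HISAT2 (2.1.0) was used for alignment to hg19 and HTSeq for counting, and the authors did not use strand in counting. The series table and the library files held the same counts (0 cells differed). Summary lines of the counter were left out of library sizes. Symbols, positions and exons came from a GENCODE release on GRCh37 later than the one used for counting, through Ensembl identifiers (59859 of 60880 matched). The 250-base windows were read from the GRCh37 genome before the start of a representative transcript of each gene in that release. This was the MANE Select transcript where tagged, otherwise the Ensembl canonical, otherwise the longest.

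Groups were taken from the sample labels. LN95(KO) was compared with LNCaP95 in edgeR 4.0.16 (R 4.3.3) by its quasi-likelihood test (robust, TMM factors, no covariate) on genes kept by filterByExpr (minimum count 10, minimum total count 15), with Benjamini-Hochberg adjustment over 15626 genes. Calls needed an adjusted p below 0.05 and more than a 2-fold difference. The biological coefficient of variation was 4.27%. DESeq2 (version 1.42.0), RLE factors, library totals, no filter, no fold criterion and the omission of each library were alternatives, and the test was tried on simulated data. A two-sided permutation test of 2 against 2 libraries cannot go below 0.333 and was not used. Intervals (95%, exact) and the limit of 3 pooled counts cover counting error only, since reads carried no molecular identifiers.

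Named genes were the 10 members, UGT2B17, called genes of each list, tested neighbours of HPGD, the 5 nearest patterns and the markers, with other list members by value. The members and lists were chosen with earlier results of these data known. PECAM1 was not matched to the table. Some items under this rule are not reported here.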

Additional observations from a re-analysis of the deposited data

How the results depend on the processing

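The alternatives for the 18 single genes gave 128 values on the same side of the call rule, 14 no longer called and 2 of opposite sign. Without the fold criterion, 9349 of 15626 genes passed with edgeR and 7006 with DESeq2, against 2811 called with edgeR and 2358 with DESeq2. Wider prostanoid genes called ranged from 5 to 7 when each library was left out, and the lipoxygenase branch had 1 call under DESeq2. The HPGD bound ranged from 496 to 1075 with libraries left out, lowest without an LNCaP95 library because the pooled depth is then smaller. Leaving out each library gave -0.01 to 0.14 for PTGES2 and -0.40 to 0.09 for PTGR2, with the sign reversed without LN95(KO) replicate 4 (the cause was not tested). MGLL was 0.99 without LNCaP95 replicate 2 and 0.98 without LN95(KO) replicate 4, and AKR1B1, TBXA2R and LTC4S lost their calls under DESeq2. SLCO3A1, with 2 and 0 reads in LN95(KO), ranged from -9.58 to -5.44 with libraries left out. Genes under about 10 reads per library, such as PTGS1, PTGS2 and PTGES, are limited by depth. No paired analysis was possible because LNCaP95 and LN95(KO) have no replicate number in common.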
